A study of Mus musculus with 16 samples.

Results

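Oxidative phosphorylation genes were taken as the genes whose symbols begin with Ndufa, Ndufb, Ndufc, Ndufs, Ndufv, Uqcr, Cox4i, Cox5 to Cox8, Atp5, mt-Nd, mt-Co, mt-Atp or mt-Cyt, together with Sdha, Sdhb, Sdhc and Sdhd, after symbols marked -ps or -rs were dropped. This gave 111 of the 78317 genes listed: 13 encoded by mitochondrial DNA and 98 by nuclear DNA. The nuclear genes comprised 90 named as subunits or their isoforms and 8 assembly factors of complex I (Ndufaf1 to Ndufaf8), which the prefix Ndufa also takes in. Of the 111, 101 had enough counts to be tested, among them all 13 mitochondrial genes, 80 nuclear subunit genes and the 8 assembly factors. One of the 9 dropped symbols, Ndufb1-ps, held between 244 and 535 counts per library and is left out only because of its suffix.

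RNA was sequenced from whole liver of 16 wild-type C57BL/6J mice, an inbred laboratory strain, in 4 groups of 4: females and males on normal chow (4.5% of calories from fat), and females and males on a high fat diet (60% of calories from fat). The mice came at 6 weeks of age and were fed for 10 weeks. The chow and the high fat diet are products of different makers, so a diet difference here is a difference between whole feeds. The labels number the animals within each group, all from 1 batch, and the libraries were made from poly(A) RNA.

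Oxidative phosphorylation is the last stage of fuel oxidation in mitochondria. Complex I (NADH dehydrogenase) and complex II (succinate dehydrogenase) pass electrons to coenzyme Q, complex III hands them to cytochrome c, complex IV (cytochrome c oxidase) gives them to oxygen, and complex V (ATP synthase) makes ATP from the proton gradient that complexes I, III and IV build. Mitochondrial DNA encodes the hydrophobic core of these complexes and nuclear DNA encodes the rest, with complex II wholly nuclear. Hepatocytes, which oxidise large amounts of fatty acid and build glucose and urea, are rich in mitochondria. The members fall to complex I (7 mitochondrial and 41 nuclear), complex II (4 nuclear), complex III (1 and 8), complex IV (3 and 19) and complex V (2 and 18).

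Library totals lay between 22228115 and 41420589 expected counts. The hepatocyte markers Alb, Apoa1, Ttr, Serpina1a, Cps1 and Hnf4a summed to between 52388 and 115341 CPM (counts scaled to a fixed library total) over the libraries, so the labelled tissue was seen in its markers. The sums were 101728 to 115341 CPM in normal diet females, 79172 to 96299 in high fat females, 82087 to 92252 in normal diet males and 52388 to 73560 in high fat males, so they did not overlap between the diets within a sex or between the sexes on a diet. The single markers did not all follow the sums. On the normal diet 2 of the 6 were higher in females and 4 lower, with 0 called. On the high fat diet 3 were higher and 3 lower in females, with 1 called each way. For diet, 4 of the 6 were lower on high fat in females and all 6 in males. Kupffer cell and macrophage markers (Clec4f, Vsig4, Adgre1, Cd68) summed to 150.0 to 205 CPM in normal diet females, 233 to 291 in high fat females, 129 to 156 in normal diet males and 111 to 218 in high fat males, with the diets apart in females and the sexes apart on the high fat diet. Muscle markers were near absent: Ckm, Acta1 and Myh4 were at 0 in all libraries. The part of these differences in the results below was not tested, and in bulk liver fewer cells of a type and less RNA per cell cannot be told apart. A pair of libraries stood apart among the nuclear members. Replicate 1 of the normal diet males had the highest share of counts in nuclear members of its group (1.02%, against 0.810% to 0.825%), and replicate 1 of the high fat females had both the highest nuclear share of its group (1.11%, against 0.883% to 0.975%) and the lowest mitochondrial share (4.46%, against 4.93% to 5.32%).

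The mitochondrial members share sequence with a stretch of chromosome 1, which decides how far their counts can be read. In the GENCODE M21 annotation (GRCm38), 7 pseudogenes lie side by side on the minus strand between positions 24611535 and 24616197 of chromosome 1, and each matched a mitochondrial gene at 99.71% identity or more. The mt-Nd3 gene and its copy Gm28438 show how close the match is. Over 345 compared bases they differed at 1 position, T3C, counted from 1 at the 5′ end of the mt-Nd3 transcript, with the mt-Nd3 base first. The first 33 bases of both, from GENCODE M21, are printed with the differing base in capitals.
mt-Nd3: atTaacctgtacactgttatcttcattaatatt
Gm28438: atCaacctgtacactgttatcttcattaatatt
A read from elsewhere in the gene fits both equally, and RSEM divides such reads by its model. The copy Gm28661 held 9.85 times the mean count of mt-Co2, Gm28437 2.39 times that of mt-Co3, Gm28438 1.92 times that of mt-Nd3 and Gm10925 1.34 times that of mt-Atp6. The copies of mt-Nd4l, mt-Co1 and mt-Nd4 held 0.281, 0.0148 and 0.00333 times the count of the gene. No annotated copy of this kind was found for mt-Nd1, mt-Nd2, mt-Nd5, mt-Nd6, mt-Cytb or mt-Atp8. The counts of mt-Nd2 were still not whole in all 16 libraries, so some of its reads may be shared with a sequence not found here. Reads of the gene and of its copy cannot be told apart here, so each mitochondrial result was also computed with the copy's counts added, an alternative chosen after seeing the data.

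**Figure D1:**
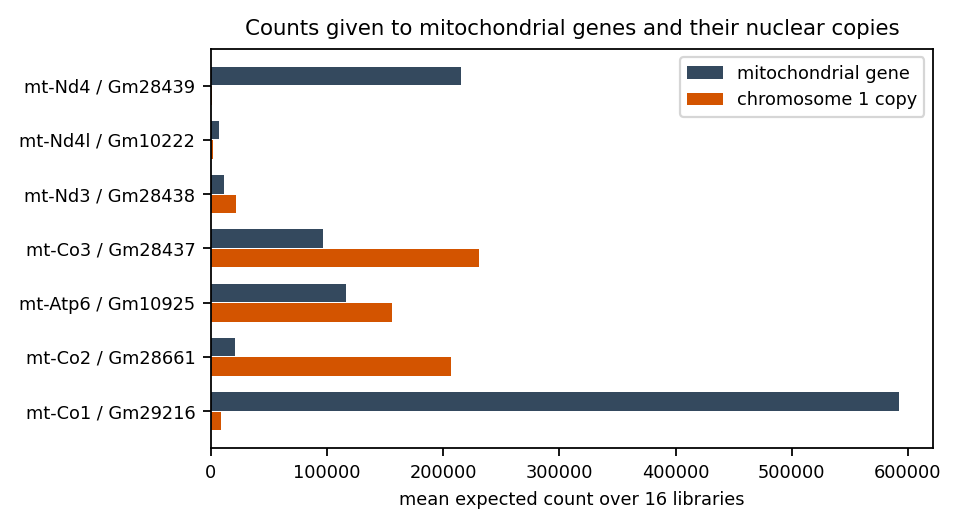
Mean expected count over the 16 libraries (horizontal axis) of 7 mitochondrial genes (dark bars) and of the chromosome 1 pseudogene that matches each (orange bars). For mt-Co2, mt-Co3, mt-Nd3 and mt-Atp6 the copy was given more counts than the gene.

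The second feature of sequence that bears on the values is overlap. The mt-Atp8 gene (GRCm38 chromosome M:7766-7969, plus strand, 204 bases) encodes a small membrane subunit of ATP synthase, and its last 43 bases, in capitals, are also the first bases of mt-Atp6.
mt-Atp8: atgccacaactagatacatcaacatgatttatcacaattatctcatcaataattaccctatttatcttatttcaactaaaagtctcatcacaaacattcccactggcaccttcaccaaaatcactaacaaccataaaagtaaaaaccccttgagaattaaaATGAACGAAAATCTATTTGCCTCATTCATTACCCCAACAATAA
The gene is short, and TPM, which divides by effective length, raised it above all other members: mt-Atp8 averaged 73511 ± 17101 TPM (SD, n = 16), against 12272 ± 1999 TPM for mt-Atp6, while in CPM the order was the opposite (287 ± 57.0 and 4835 ± 1154 CPM in normal diet females, SD, n = 4). All 13 mitochondrial members took 11.5% to 23.3% of a library's TPM and 4.46% to 8.27% of its counts. Counts are therefore used below. Per length and with copies added, the remaining mitochondrial members ranged from 3071 ± 1146 TPM for mt-Nd5 to 28950 ± 3485 TPM for mt-Atp6 (SD, n = 16). The most abundant nuclear member per length was Atp5b, the catalytic beta subunit of ATP synthase, at 777 ± 59.8 TPM.

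The ratio of summed mitochondrial to summed nuclear counts compares the 2 genomes within a library, without any scaling between libraries. It was 5.78, 5.48, 5.14 and 6.01 in the 4 normal diet females and 4.03, 5.55, 6.03 and 5.06 in the 4 high fat females. It was 6.30, 7.23, 7.59 and 8.62 in the normal diet males and 7.65, 9.04, 9.14 and 8.47 in the high fat males. All 8 males lay above all 8 females, and within each sex the diets overlapped. The group means were 5.60 ± 0.379, 5.17 ± 0.854, 7.44 ± 0.958 and 8.57 ± 0.685 (SD, n = 4, in the same order). With the copies added the females lay between 5.94 and 8.34 and the males between 8.53 and 12.0. The ratio is a sum over members and is given as a description, with no test. On TPM the sexes overlapped on the normal diet (7.18 to 9.27 in females and 7.40 to 12.2 in males), and with TPM and copies added they overlapped on the high fat diet too.

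**Figure D2:**
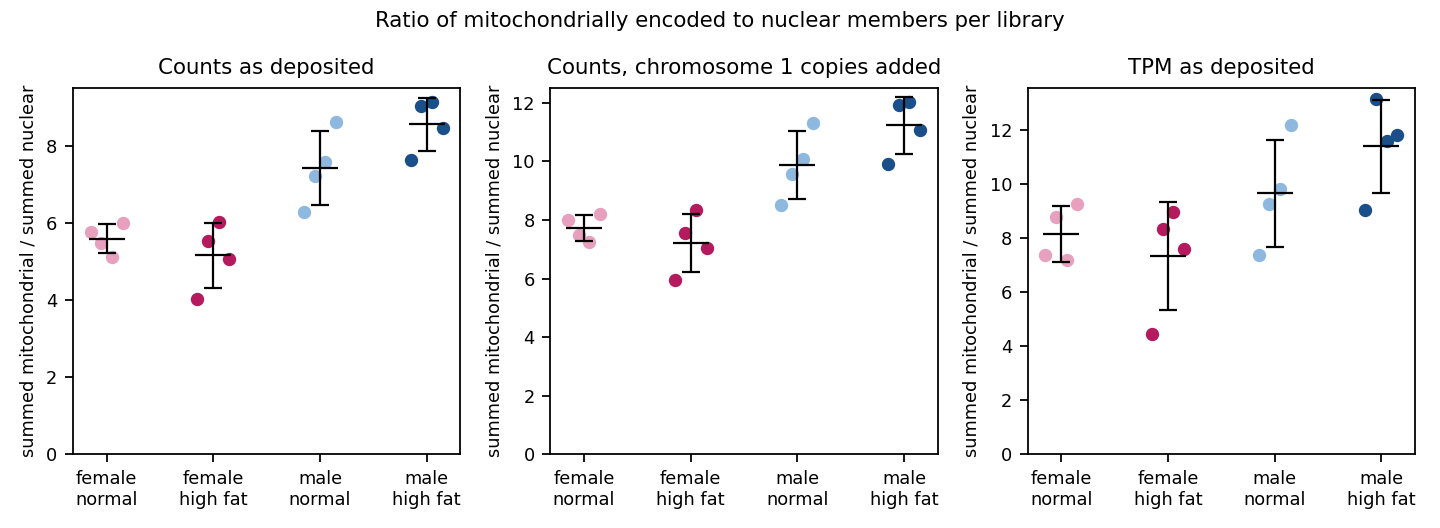
Ratio of the summed mitochondrially encoded members to the summed nuclear members in each library (points), with mean and SD (bars, n = 4), from counts, from counts with the chromosome 1 copies added, and from TPM. In the first 2 panels all males lie above all females, and in the TPM panel the sexes overlap on the normal diet.

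The ratio differed in the same way for some complexes and not for others. For complex I, whose 7 mitochondrial subunits form the proton-pumping arm, it was 5.65 to 9.24 in the 8 females and 9.81 to 15.1 in the 8 males. For complex III, with mt-Cytb as its mitochondrial subunit, it was 4.74 to 6.98 in females and 7.15 to 11.4 in males. For complex IV the sexes were apart on the high fat diet (11.4 to 19.3 in females and 21.9 to 28.9 in males) and overlapped on the normal diet (16.5 to 19.3 and 18.1 to 26.8). For complex V, with mt-Atp6 and mt-Atp8, the 4 groups overlapped, at 0.932 to 1.16 and 0.949 to 1.44 in the high fat and normal diet females and 1.04 to 1.32 and 0.991 to 1.22 in the high fat and normal diet males. With copies added, complex I and complex III were still apart between the sexes (5.92 to 9.66 in females and 10.1 to 15.5 in males for complex I). With copies added the ratio of complex IV was 21.7 to 32.0 and 34.9 to 45.3 in high fat females and males and 27.9 to 31.1 and 29.6 to 42.2 on the normal diet. That of complex V was 1.97 to 2.67 and 2.28 to 2.67 in high fat and normal diet females and 2.24 to 3.20 and 2.34 to 2.90 in high fat and normal diet males, with the same overlaps.

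The largest block of changed members was the mitochondrial set between the sexes on the high fat diet. In this comparison 9 of 13 were lower in females: mt-Nd1, mt-Nd2, mt-Nd4, mt-Nd4l, mt-Nd5 and mt-Nd6 of complex I, mt-Cytb of complex III, and mt-Co1 and mt-Co2, which hold the catalytic centres of complex IV. All 4 females were below all 4 males in each of the 9, and the share of all genes apart in this way was not counted. No mitochondrial member was called higher. In this contrast 12 of the 101 members tested were called, 2 higher and 10 lower in females, by edgeR's quasi-likelihood test at a Benjamini-Hochberg adjusted p under 0.05. Of all 14781 genes tested, 20.4% were called, 8.84% higher and 11.6% lower, so that the share of members called is below the background and the mitochondrial share is above it. The median log2 fold change was -0.64 over the mitochondrial members, 0.17 over the nuclear subunits and -0.01 over all genes.

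mt-Nd5, the complex I subunit at the far end of the membrane arm, had the largest difference. It stood at 1435, 2875, 2892 and 2560 CPM in the high fat females and 4604, 6797, 6700 and 5747 CPM in the high fat males. The groups did not overlap, and replicate 1 of the females was the lowest. The log2 fold change, females minus males, was -1.29 ± 0.21 (SE, edgeR adjusted p = 0.000461), a level 2.44-fold lower. mt-Nd6, the one member read from the other strand of mitochondrial DNA, stood at 558, 571, 516 and 500 CPM in the high fat females and 958, 1217, 1201 and 1039 CPM in the high fat males. It was 2.06-fold lower in females (-1.04 ± 0.15, edgeR adjusted p = 0.000115). Whether the counting used strand is not given in the sources used here, and without strand the reads of mt-Nd6 and of transcripts opposite it cannot be told apart.

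mt-Nd4, the neighbour of mt-Nd5 in the membrane arm, was at 4252, 5263, 5821 and 4648 CPM in the high fat females and 7681, 9994, 10345 and 8129 CPM in the high fat males (-0.86 ± 0.14, edgeR adjusted p = 0.000481). mt-Nd4l, the short gene whose last 7 bases lie in mt-Nd4, was 2.30-fold lower in females (-1.20 ± 0.23, edgeR adjusted p = 0.00186). Replicate 1 of the high fat females was at 67.0 CPM and the others at 168 to 187 CPM. mt-Cytb, the core of complex III, was at 5597, 6304, 6889 and 5879 CPM against 8498, 11524, 12264 and 9481 CPM (-0.76 ± 0.13, edgeR adjusted p = 0.000848). In these genes too the lowest male was above the highest female.

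mt-Nd2 differed by -0.72 ± 0.14, mt-Nd1 by -0.56 ± 0.12, mt-Co1 by -0.64 ± 0.13 and mt-Co2 by -0.49 ± 0.16 on the log2 scale. The other 8 of these 9, mt-Co2 apart, held their call under every alternative run, the 8 fits that left out 1 library included, and mt-Co2 lost it in 7 of those 8 fits, most clearly without replicate 3 of the high fat males (edgeR adjusted p = 0.161). The 4 members not called were mt-Co3 (-0.35 ± 0.16), mt-Atp8 (-0.35 ± 0.26), mt-Atp6 (-0.21 ± 0.16) and mt-Nd3 (0.13 ± 0.15). With copies added the same count, 9, was called lower, and mt-Nd3 moved to -0.03. In order along the mitochondrial genome, the 5 genes from mt-Nd4l to mt-Cytb had log2 differences between -0.76 and -1.29, and the 8 genes before them between -0.72 and 0.13. The copies of mt-Co2, mt-Atp6, mt-Co3 and mt-Nd3 were given more counts than the genes, and with copies added the values of these 4 lay between -0.48 and -0.03.

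**Figure D3:**
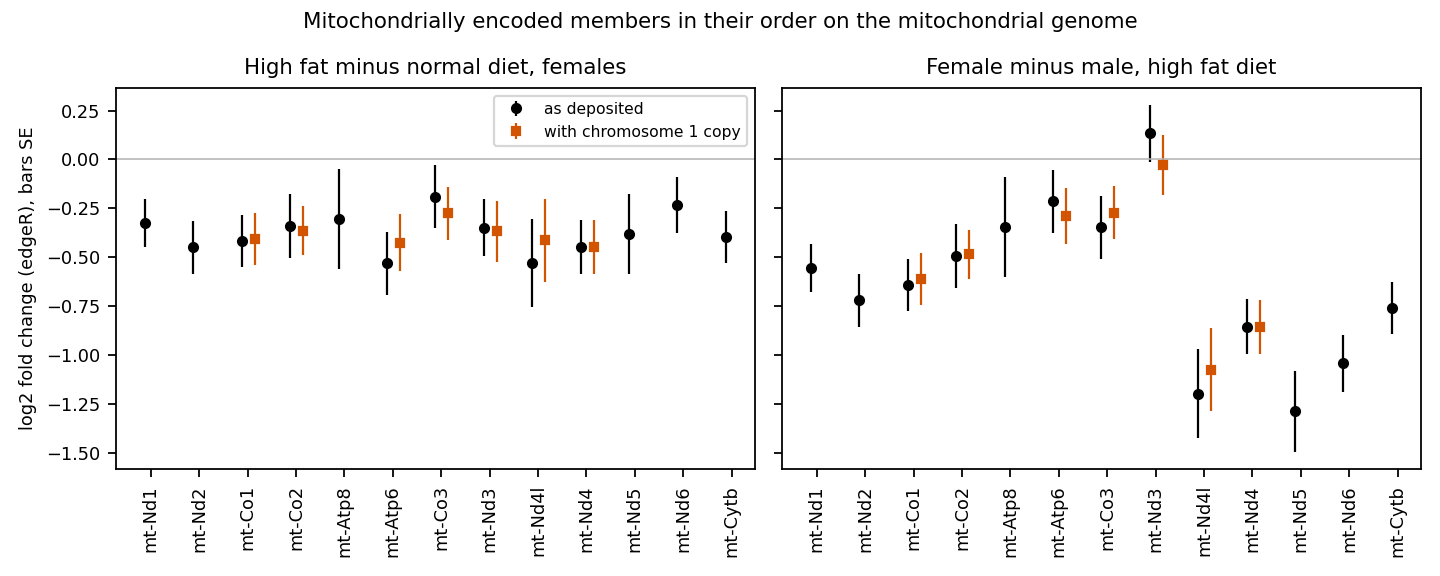
Log2 fold change (vertical axis, bars are SE) of each mitochondrial member in its order along the genome, for diet in females (left) and for sex on the high fat diet (right). Black points are the deposited counts and orange squares the counts with the chromosome 1 copy added; at right the 5 genes from mt-Nd4l to mt-Cytb lie lowest.

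The nuclear members went the other way between the sexes on the high fat diet, by small amounts. Of the 80 nuclear subunits 67 had a positive log2 fold change. The 2 called were both higher in females, beside 8.84% of all genes called higher. For 15 of the 80 all females were above all males, and the share of all genes apart in this way was not counted. Sdhd, a membrane anchor of complex II, stood at 210, 162, 173 and 156 CPM in the high fat females and 108, 138, 149 and 114 CPM in the males (0.46 ± 0.15, edgeR adjusted p = 0.0416), with no overlap. Cox7a1, the heart and muscle isoform of a small complex IV subunit, was called at 3.25-fold higher in females, on very few reads: 1.15, 0.397, 0.299 and 0.785 CPM against 0.186, 0.170, 0.344 and 0.0885 CPM, with overlap. With each of the 8 libraries dropped in turn, either gene passed 3 times. Both were lost without replicate 1 of the high fat females (edgeR adjusted p = 0.124 for Sdhd and 0.127 for Cox7a1, the largest of each) and without replicates 1, 2 or 4 of the high fat males, Sdhd also without replicate 3 and Cox7a1 also without replicate 4 of the high fat females. When limma was run on log2(TPM + 1) in place of counts, 39 nuclear subunits were called higher and 8 mitochondrial members lower, 48 members in all (40 higher and 8 lower, against 2 and 10 on counts). On that scale 3710 of all 14781 genes were called, 2957 higher and 753 lower in females. It also put the median of all genes 0.10 higher in females.

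On the normal diet the members called between the sexes were mostly nuclear genes, as are most of the members tested. Females had higher levels of 7 nuclear subunits: Ndufa7, Ndufb8 and Ndufab1 of complex I, Sdhb and Sdhc of complex II, Uqcrb of complex III and Atp5g1, a gene for the rotor ring of complex V. The assembly factor Ndufaf5 was also higher, and mt-Nd2 was lower. These 9 calls, 8 higher and 1 lower among 101 members, compare with 15.7% of all genes called and 7.03% called higher. The share of members called is thus below the background, and the share called higher is near it. The sign was positive for 77 of the 80 nuclear subunits, and the medians were 0.26 over nuclear subunits and -0.18 over mitochondrial members.

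Ndufa7, an accessory subunit of complex I, was at 64.9, 52.1, 44.0 and 45.2 CPM in the normal diet females and 44.2, 29.7, 25.6 and 29.0 CPM in the males (0.68 ± 0.16, edgeR adjusted p = 0.00732). The groups touched at 1 library, replicate 1 of the males. Sdhb, the iron-sulfur subunit of complex II, was at 198, 205, 157 and 155 CPM against 157, 126, 113 and 117 CPM (0.48 ± 0.14, edgeR adjusted p = 0.0236), again with that male inside the females' range. Ndufaf5, an enzyme that modifies a complex I subunit during assembly, was at 6.41, 4.54, 4.87 and 4.63 CPM against 3.75, 3.31, 2.72 and 2.84 CPM, with no overlap (0.69 ± 0.17, edgeR adjusted p = 0.0110). mt-Nd2 was at 6401, 6498, 4480 and 6061 CPM in the females and 7759, 7418, 7451 and 9137 CPM in the males, with no overlap (-0.44 ± 0.14, edgeR adjusted p = 0.0353). It is the one mitochondrial member called on both diets. Its normal diet call held in 9 of 17 alternatives, among them 2 of the 8 fits that left out 1 library. The largest edgeR adjusted p of those 8 was 0.120, without male replicate 4. The call of Sdhb held in 12 of 17 alternatives, and those of Ndufa7 and Ndufaf5 in all 17.

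The count for the normal diet turned on replicate 1 of the males. Without it 48 members were called, 47 of them higher in females, and 43 of these 48 were nuclear subunits, with a nuclear median of 0.40. Of all 15103 genes tested in that fit 2488 were called, 1195 of them higher in females. Without female replicate 1 or male replicate 2 the count of members was 3, beside 1523 and 1800 of all genes. Without female replicate 2 or male replicate 3 or 4 it was 2, beside 1325, 1378 and 1679 of all genes. Without female replicate 3 or 4 it was 12 or 6, beside 2037 and 1944 of all genes. The main fit called 9 members and 2322 of all genes.

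**Figure D4:**
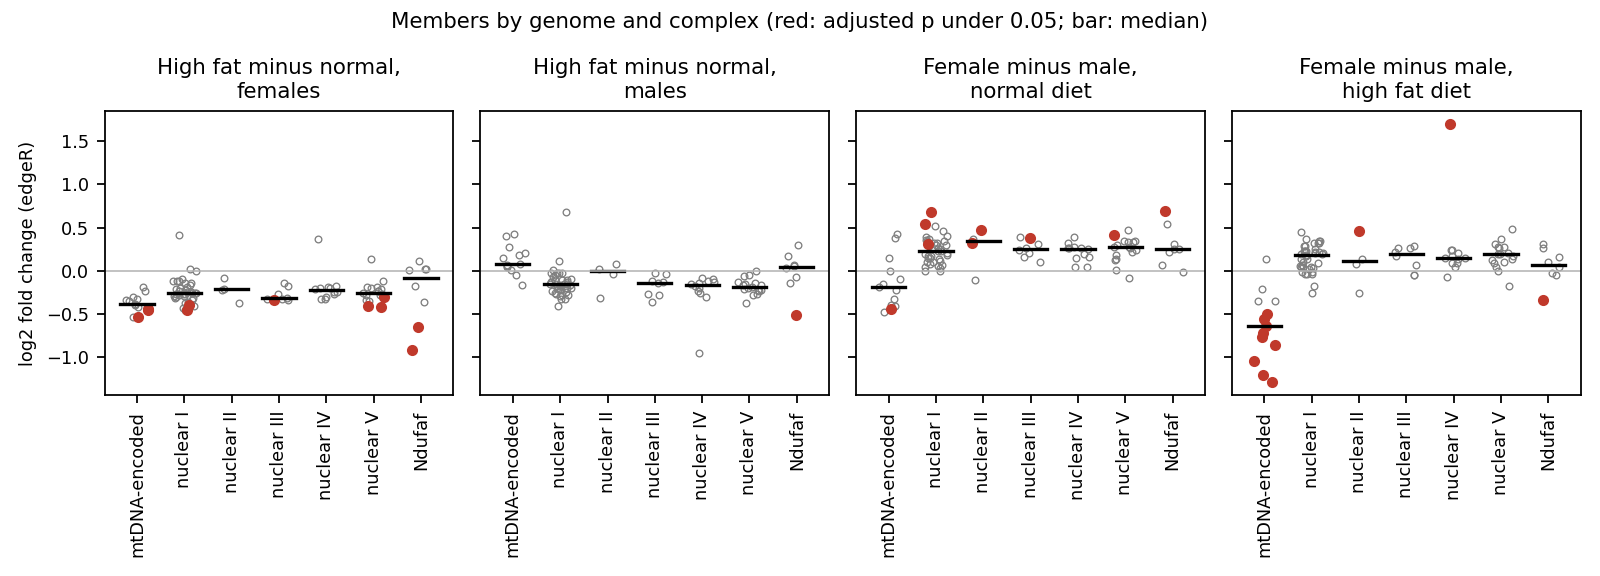
Log2 fold change (edgeR, vertical axis) of each tested member, grouped by genome and complex, in 4 contrasts; red points passed the adjusted p of 0.05, open points did not, and bars are medians. Mitochondrial members lie lowest in the panel of sex on the high fat diet, where 9 of 13 are red.

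A few members were lower in females on the high fat diet than on normal chow. Of the 101 tested, 11 were called, all lower: Ndufb5 and Ndufv2 of complex I, Uqcrc2 of complex III, Atp5b, Atp5c1 and Atp5f1 of complex V, the assembly factors Ndufaf4 and Ndufaf6, and mt-Nd2, mt-Nd4 and mt-Atp6. Over all genes 11.5% were called and 5.76% were called lower. No member was called higher, and 76 of the 80 nuclear subunits and all 13 mitochondrial members had a negative sign. The medians were -0.26 and -0.38, against 0.00 over all genes.

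Uqcrc2, a core protein of complex III, was at 304, 320, 289 and 301 CPM on the normal diet and 232, 237, 254 and 237 CPM on the high fat diet, with no overlap (-0.34 ± 0.09, edgeR adjusted p = 0.0263). Atp5b was at 1179, 1286, 1194 and 1169 CPM against 1044, 961, 936 and 976 CPM, also with no overlap (-0.30 ± 0.09, edgeR adjusted p = 0.0452). The central stalk gene Atp5c1 and the peripheral stalk gene Atp5f1 changed by -0.42 ± 0.12 and -0.40 ± 0.12, Ndufb5 by -0.45 ± 0.12 and the NADH-binding module gene Ndufv2 by -0.40 ± 0.12. Ndufb5 shares 530 exonic bases with Mrpl47 on the opposite strand, and Mrpl47 was itself lower (-0.43 ± 0.10). Without strand, these 2 cannot be told apart where they overlap. The same holds for Uqcrc2 with Pdzd9 and for Atp5f1 with Wdr77. mt-Atp6 lost its call with the copy added (-0.53 ± 0.16, and -0.43 ± 0.14 with an edgeR adjusted p of 0.0640).

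Outside Ndufaf4, these calls in females depended on single libraries and on the unit. Without high fat replicate 1, 2, 3 or 4 the count was 18, 2, 6 or 1. Without normal diet replicate 1, 2, 3 or 4 it was 1, 1, 11 or 4. Calls over all genes fell too, from 1700 in the main fit. They were 1323, 1624, 1647 and 947 without high fat replicates 1, 2, 3 and 4. Without normal diet replicates 1, 2, 3 and 4 they were 1021, 1062, 1356 and 1074. The count of members was 1 on the log2(TPM + 1) scale. There the medians were -0.04 over nuclear subunits and -0.18 over mitochondrial members. The median of all genes was itself 0.15 higher on the high fat diet.

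Ndufaf4, an assembly factor needed for early intermediates of complex I, was the one member called in both sexes. In females it was at 88.7, 81.6, 62.9 and 78.4 CPM on the normal diet and 37.0, 41.3, 46.7 and 40.5 CPM on the high fat diet. In males it was at 82.2, 75.0, 63.5 and 77.0 CPM on the normal diet and 49.5, 51.4, 56.0 and 51.5 CPM on the high fat diet. No high fat library of either sex reached the lowest normal diet library. The fall was 1.88-fold in females (-0.91 ± 0.11, edgeR adjusted p = 8.18e-05) and 1.43-fold in males (-0.51 ± 0.11, edgeR adjusted p = 0.00633). Both calls were kept in every alternative run, 17 in females and 18 in males. On the high fat diet the level was lower in females than in males (-0.33 ± 0.11, edgeR adjusted p = 0.0417, called in 4 of 18 alternatives), and the difference between the 2 diet effects was not called (-0.40 ± 0.16, edgeR adjusted p = 0.286).

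In males Ndufaf4 was the 1 member of 101 called for diet, against 11.4% of all genes. The nuclear subunits had a median of -0.16, with 6 of 80 positive, and the mitochondrial members one of 0.08, with 11 of 13 positive. mt-Nd6 was at 937, 723, 770 and 899 CPM on the normal diet and 958, 1217, 1201 and 1039 CPM on the high fat diet, the one mitochondrial member whose male diet groups did not overlap (0.41 ± 0.15, edgeR adjusted p = 0.0769). mt-Nd5 differed by 0.43 ± 0.21 (edgeR adjusted p = 0.186).

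The test of whether diet acted differently in the sexes (female change minus male change) called 0 members, against 0.677% of all genes. At an unadjusted p under 0.05 edgeR gave 11 of 101 members, and the share of all genes at that level was not counted. DESeq2 called 1 of the 101 after adjustment, mt-Cytb (edgeR value -0.61 ± 0.19, adjusted p = 0.160), beside 341 of all 14781 genes. All 13 mitochondrial members had a negative difference, from -0.28 for mt-Nd2 to -0.81 for mt-Nd5, with a median of -0.49, and the nuclear subunits had a median of -0.10.

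**Figure D5:**
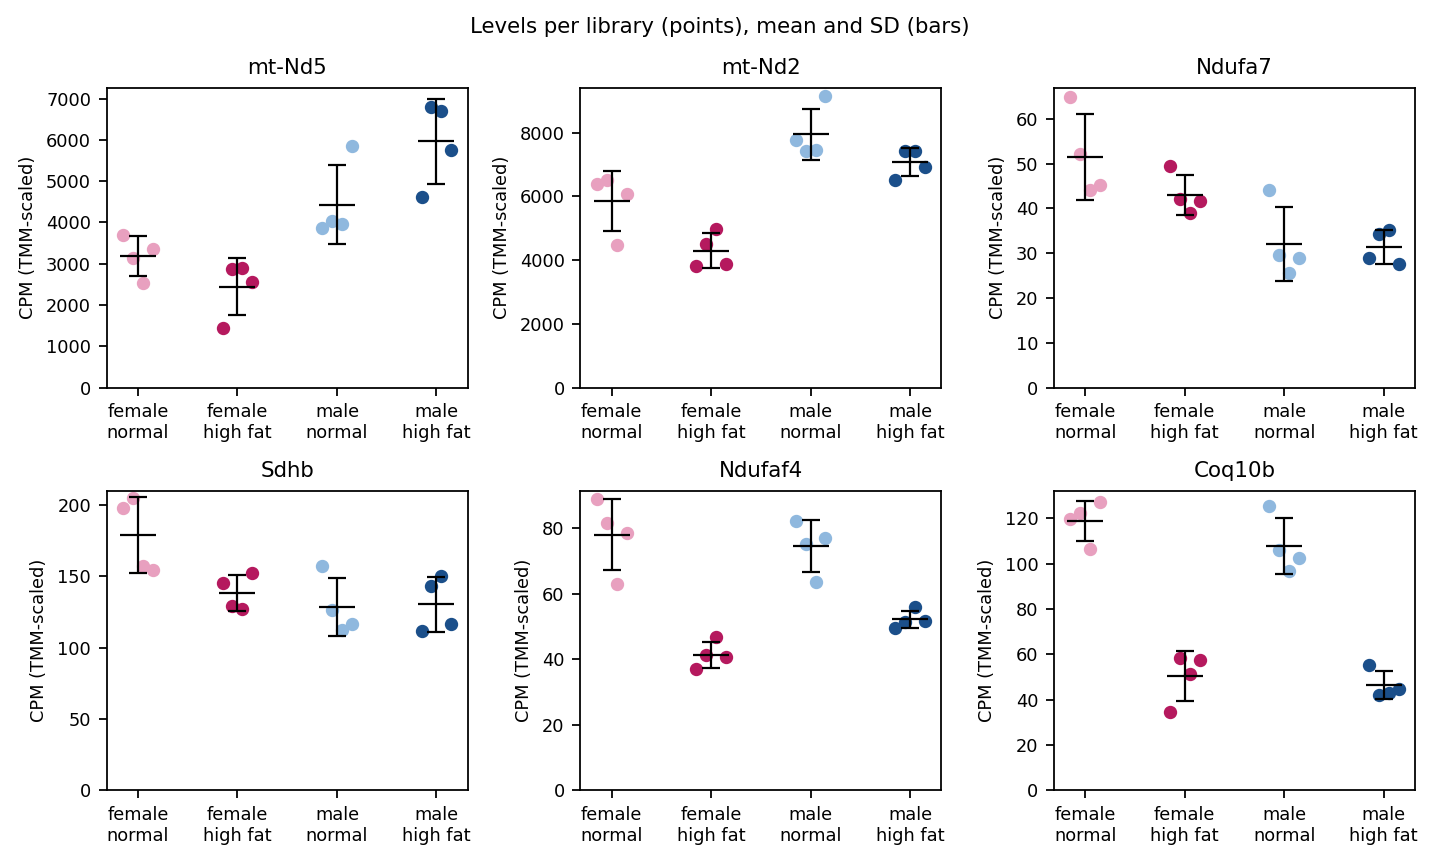
Levels (CPM, vertical axis) of 6 genes in each library (points) with mean and SD (bars, n = 4). mt-Nd5 and mt-Nd2 are lower in females than in males on the high fat diet, Ndufa7 and Sdhb are higher in females on the normal diet, and Ndufaf4 and Coq10b are lower on the high fat diet in both sexes.

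Promoters were examined for Ndufaf4 because it moved with diet in both sexes and for Sdhb because it is a nuclear subunit called between the sexes. Atp5b was taken as the most abundant nuclear member per length. The promoters of Atp5c1, Ndufb5, Ndufv2, Ndufa7 and Ndufb8, which are called members too, were also searched and are not printed. All were chosen after their values were seen. The motifs searched, on both strands of the 300 bases from 250 before to 50 after the start (RefSeq, GRCm38.p6), were GCGCATGCG for NRF1, CCGGAAG for ETS factors such as GABP, and AAGATGGCG for YY1, regulators long known for respiratory genes. None of the 3 contains another. Of the 80 tested nuclear subunits 63 had a listed promoter, of which 8 held the NRF1 letters (12.7%, against 1.95% of 27025 genes and 3.85% of the 10578 tested genes with a promoter). The ETS letters were in 16 (25.4%, against 9.93% and 19.3%) and the YY1 letters in 7 (11.1%, against 1.64% and 3.44%). None of the 3 was found in the promoters of Atp5c1, Ndufb5, Ndufv2, Ndufa7 or Ndufb8. A match is a description of letters and not a binding site. Matches are in capitals in the promoters of Ndufaf4 (chr4:24897833-24898132, plus strand), Sdhb (chr4:140961021-140961320, plus strand) and Atp5b (chr10:128083057-128083356, plus strand, with none of the 3).
Ndufaf4: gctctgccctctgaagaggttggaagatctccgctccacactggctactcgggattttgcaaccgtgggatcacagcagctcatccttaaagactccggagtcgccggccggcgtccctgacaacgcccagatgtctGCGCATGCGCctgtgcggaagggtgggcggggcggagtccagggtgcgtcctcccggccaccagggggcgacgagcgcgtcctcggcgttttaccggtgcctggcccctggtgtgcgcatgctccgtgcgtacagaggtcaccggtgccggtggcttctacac
Sdhb: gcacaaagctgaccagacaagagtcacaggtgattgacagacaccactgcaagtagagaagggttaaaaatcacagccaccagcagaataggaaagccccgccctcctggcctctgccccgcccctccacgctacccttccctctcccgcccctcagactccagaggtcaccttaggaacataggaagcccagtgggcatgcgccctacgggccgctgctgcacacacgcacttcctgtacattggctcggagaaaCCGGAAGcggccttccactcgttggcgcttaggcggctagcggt
Atp5b: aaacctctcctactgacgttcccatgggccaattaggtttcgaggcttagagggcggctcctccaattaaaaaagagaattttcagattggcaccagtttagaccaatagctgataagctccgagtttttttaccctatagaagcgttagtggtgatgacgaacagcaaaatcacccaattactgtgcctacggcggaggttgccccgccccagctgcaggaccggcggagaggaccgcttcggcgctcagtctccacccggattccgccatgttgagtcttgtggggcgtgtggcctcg
In Ndufaf4 the NRF1 letters matched on both strands at 1 place, since the 10 capitals read the same on either strand.

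The succinate dehydrogenase genes and the tissue isoforms show how the liver set is built. Sdha, the flavoprotein of complex II, had the opposite sign to its partners between the sexes, and the genes were not tested against each other. Its log2 difference was -0.10 ± 0.12 on the normal diet and -0.26 ± 0.12 on the high fat diet, neither called. Sdhb, Sdhc and Sdhd were positive on both diets. Of these, Sdhb and Sdhc were called on the normal diet only and Sdhd on the high fat diet only. Per length the 4 were close, at 209 ± 26.3, 202 ± 34.9, 143 ± 18.4 and 211 ± 45.9 TPM (SD, n = 16). Among isoforms the general form dominated: Cox4i1 averaged 561 TPM and Cox4i2 0.118, Cox6a1 273 and Cox6a2 0.0675, Cox6b1 588 and Cox6b2 0.665, Cox7a2 320 and Cox7a1 5.45. Cox8a averaged 206 TPM, Cox8b 0.0319, and Cox8c was listed at 0. Ndufa4, which with Ndufa4l2 is counted here under complex I by its symbol although its protein is now placed in complex IV, averaged 657 TPM and its relative Ndufa4l2 1.70. The 3 genes of the same rotor ring protein stood at 262 (Atp5g1), 121 (Atp5g2) and 666 TPM (Atp5g3). None of the general isoforms was called for diet in either sex. The genes Ndufb4 (25.5 TPM) and Ndufb4c (250 TPM) may share reads, and their separate values are uncertain.

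The untested members were the second identifier of Atp5o and the genes Ndufa11b, Ndufs6b, Cox4i2, Cox6a2, Cox6b2, Cox6c2, Cox7b2, Cox8b and Cox8c, with at most 13 counts in any library, and 4 of these 10 were listed at 0 throughout.

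Other genes around the chain were counted in lists. Beside the counts for diet stand the shares of all genes called, 11.5% in females and 11.4% in males. Coq10b, a coenzyme Q-binding protein, was at 120, 122, 107 and 127 CPM in normal diet females and 34.4, 58.3, 51.1 and 57.5 CPM in high fat females. In males it was at 125, 106, 96.6 and 103 CPM and 55.3, 41.9, 43.1 and 44.9 CPM. The groups were apart in both sexes (-1.24 ± 0.15, edgeR adjusted p = 5.79e-05, and -1.22 ± 0.15, edgeR adjusted p = 6.42e-05). Cycs, cytochrome c itself, fell in females (142, 156, 126 and 148 CPM against 93.3, 88.9, 104 and 69.0 CPM; -0.69 ± 0.13, edgeR adjusted p = 0.00293) and in males differed by -0.17 ± 0.13 (edgeR adjusted p = 0.414); the difference of these effects was not called (edgeR adjusted p = 0.247). Of the 20 cytochrome c, coenzyme Q and related genes, 0 were higher and 3 lower in females for diet, and 2 higher and 2 lower in males, with medians of -0.17 and -0.03.

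Of 46 tested assembly factors of all complexes, the Ndufaf genes included, 0 were higher and 7 lower for diet in females, and 1 was higher and 1 lower in males. Over all genes 11.5% and 11.4% were called, and 5.76% were called lower in females. Coa6, a copper-handling factor of complex IV, fell in females (-0.60 ± 0.15, edgeR adjusted p = 0.0167), and Atpaf1, an assembly factor of complex V, rose in males (0.51 ± 0.12, edgeR adjusted p = 0.00873). The medians of the list were -0.06 and -0.08.

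The genes that maintain and read mitochondrial DNA were counted beside the mitochondrial members. Of 28 tested, 2 were higher and 3 lower for diet in females, and 2 higher and 1 lower in males, with 11.5% and 11.4% of all genes called. Mterf2, of the transcription termination factor family, rose in both (0.85 ± 0.21, edgeR adjusted p = 0.0148, and 1.15 ± 0.22, edgeR adjusted p = 0.00241), and the elongation factor Tefm rose in males (0.56 ± 0.12, edgeR adjusted p = 0.00552). Between the sexes on the high fat diet 0 were higher and 3 lower in females, near the 11.6% of all genes called lower. These 3 are named here after their values were seen: Lrpprc, which stabilises mitochondrial mRNAs (-0.44 ± 0.12), Hsd17b10, a subunit of mitochondrial RNase P (-0.73 ± 0.18), and the RNA-degrading enzyme Pnpt1 (-0.37 ± 0.10). Their part in the lower mitochondrial members of females was not tested.

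Of 78 mitochondrial ribosomal protein genes 0 were higher and 3 lower for diet in females, and likewise 0 and 3 in males, beside 11.5% and 11.4% of all genes called, with medians of -0.15 and -0.16. Mrpl47 was lower in both (-0.43 ± 0.10 and -0.45 ± 0.10), and Mrps22 was called in females (-0.40 ± 0.11, edgeR adjusted p = 0.0247). Of 12 tested nuclear regulators of respiratory genes, Yy1 was the 1 called for diet, in females (-0.38 ± 0.12, edgeR adjusted p = 0.0427). None of 9 tested genes for uncoupling, carriers and cristae was called for diet in either sex. Among them Ucp2, an inner membrane carrier, was higher in females than in males on the normal diet (1.01 ± 0.14) and on the high fat diet (0.67 ± 0.14), and it too was named after its values were seen.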

How the data were processed

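RNA of 16 livers was compared. Per the submitters' processing notes, STAR, RSEM and GRCm39 were used; versions, annotation and strand setting are not given in the sources used here. The authors deposited RSEM expected counts and TPM per gene. RSEM divides multi-mapping reads by a model, so 4.89% of the count entries were not whole. Symbols came from a supplied table and matched 51487 of 78317 identifiers, which held 98.97% of counts.

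Counts were rounded, filtered with filterByExpr, scaled by TMM and fitted with edgeR 4.0.16 (quasi-likelihood, robust, 1 mean per group, all 16 libraries, R 4.3.3) in 5 two-sided contrasts. Genes were called at a Benjamini-Hochberg adjusted p under 0.05 over 14781 genes. SE is the log2 fold change over the square root of F. In tests on simulated data for diet in females (14559 genes, 200 changed), 29.00% of 1.5-fold and 64.29% of 2-fold changes were recovered, and 3.158% of calls were false. DESeq2 1.42.0 and limma 3.58.1 on log2(TPM + 1) or log2(TPM + 0.1) were among the alternatives, with other scaling, no filter, a replicate block, each library left out in turn, the alike high fat male replicates 2 and 3 averaged, and copies added.

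Copies were found with BLAST+ 2.17.0 on GENCODE M21 transcripts. Coordinates and sequences are of GRCm38, an older build than that of the counts. The members and lists were chosen with earlier results of these data known. Genes named were the mitochondrial members, the Sdh genes, isoform pairs, up to 6 nuclear members called each way per contrast by p, and 2 genes per list by p over the diet contrasts and interaction. Others named were chosen after their values were seen. Nothing in the labels states that same-numbered animals are paired. The labels do not say how the animals of a group were housed or whether they were littermates, so p-values measure the spread between these animals.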

Additional observations from a re-analysis of the deposited data

Results flagged for a closer look

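In 168 sets of 4 libraries (each named member in each group, and the summed shares), 16 had 1 library farther from the others than Dixon's 95% critical value allows, and chance flags about 1 in 20. Of these 16, 11 were the high value of replicate 1 of the normal diet males: Sdhc (167 CPM, others 134 to 137), Cox4i1 (272, others 182 to 188), Cox6a1 (79.8, others 51.1 to 55.4), Cox6b1 (203, others 131 to 139), Cox7a2l (116, others 89.8 to 93.9), Ndufa4 (205, others 127 to 136), Atp5g2 (54.2, others 35.7 to 37.5), Atp5g3 (283, others 212 to 219), Atp5c1 (374, others 273 to 287), Ndufab1 (48.4, others 41.7 to 42.6) and the share of counts in nuclear members (1.02%, others 0.810% to 0.825%).

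Another 4 belonged to replicate 1 of the high fat females: Ndufa4 (156 CPM, others 117 to 123), Ndufa4l2 (2.42, others 0.411 to 0.746) and Atp5g1 (102, others 73.7 to 78.4) were high, and mt-Nd4l (67.0, others 168 to 187) was low. The last was mt-Nd5 in replicate 4 of the normal diet males (5858 CPM, others 3868 to 4044).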

How the results depend on the processing

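Of 30 calls of named members, recomputed 522 times under the alternatives, 376 stayed called, 146 fell short of the threshold and 0 changed sign. With 1 library left out, the number of members called ranged from 1 to 18 for diet in females, 1 to 2 for diet in males, 0 to 0 for the interaction, 2 to 48 for sex on the normal diet and 8 to 11 for sex on the high fat diet. The median of the mitochondrial members then ranged from -0.45 to -0.29, 0.01 to 0.17, -0.61 to -0.39, -0.24 to -0.13 and -0.71 to -0.53 in the same order, and that of the nuclear subunits from -0.33 to -0.17, -0.22 to -0.03, -0.20 to 0.0030, 0.18 to 0.40 and 0.08 to 0.23. The interaction median of the nuclear subunits changed sign to 0.0030 without normal diet female replicate 1, and to 0.0507 on log2(TPM + 1) and 0.0508 on log2(TPM + 0.1). The main counts were 11, 1, 0, 9 and 12 members, beside 1700, 1684, 100, 2322 and 3022 of all genes. DESeq2 gave 20, 2, 1 and 18 members for the first 4, beside 2322, 2250, 341 and 2895 of all genes. Without a filter on low counts, diet gave 4 members in females and 2 in males, beside 1260 and 1252 of 30041 genes. On log2(TPM + 1) the counts were 1, 3, 16 and 48 for diet in females, diet in males and sex on the normal and high fat diet, and on log2(TPM + 0.1) 1, 3, 20 and 47. The cause of these moves was not tested. On log2(TPM + 1) diet in females called 2644 genes higher and 282 lower, against 848 and 852 on counts, and the median of all genes moved by 0.15 (0.22 with 0.1 added). Sex on the high fat diet called 2957 genes higher and 753 lower on that scale, against 1306 and 1716 on counts. Same-numbered animals are not known to be paired: over 24 pairs the correlation of their deviations had a median of 0.044 (-0.16 to 0.18), 4 were over 0.1, and 5 of 16 libraries correlated best with their own number. A replicate block gave 17, 3, 25 and 17 members for diet in females and males and sex on the normal and high fat diet. Beside these stood 1864, 1980, 2685 and 3445 of all genes. For the interaction the block gave 0 members and 101 of all genes. With high fat male replicates 2 and 3 averaged, the counts were 1 for diet in males, 0 for the interaction and 10 for sex on the high fat diet. Calls over all genes were then 1179, 58 and 2592.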
